A study of Mus musculus with 6 samples.

Results

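The BTG/TOB antiproliferative family of the mouse consists of 6 genes, Btg1, Btg2, Btg3, Btg4, Tob1 and Tob2. They were taken by symbol from a deposited count table of 50763 gene symbols, and all 6 passed the filter on low counts, as did 18860 symbols of the whole table. The family was put forward with results of these libraries known, and was chosen from the sKO against WT differences in the same table. Differences of its members between the groups are therefore given as a description, with counts of members past a threshold but no p-values. The table compared whole testes at postnatal day 14 from 3 sKO samples and 3 wild-type (WT) samples. In sKO testes Rif1, a gene of DNA break repair and replication timing, was conditionally deleted in germ cells ahead of meiosis, so by design somatic cells of these testes keep the gene. The labels name neither the Cre driver nor the exons removed, and give no litter or strain. Nor do they state whether the 3 samples per genotype are 3 mice, so error estimates cover sample-to-sample spread that may be technical.

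Proteins of this family share a BTG/TOB domain that binds the deadenylase subunits CNOT7 and CNOT8 of the CCR4-NOT complex. Through this contact they shorten poly(A) tails and hasten mRNA decay, and their overexpression slows the passage of cells from G1 into S phase. Btg2 (also known as Tis21 and PC3) is induced by p53 and, as an immediate early gene, by growth factors. Btg1 is its closest paralog, Btg3 (ANA) is a separate branch, and Tob1 and Tob2 carry a longer tail that contacts the poly(A)-binding protein PABPC1. Btg4 is best known from the mouse oocyte, where it brings CCR4-NOT to maternal mRNAs.

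Libraries held 15941672 to 18296594 counts, so 3 counts, the limit that a count of 0 allows, corresponded to 0.165 to 0.187 CPM, the count scaled to the TMM-adjusted library size. Such limits cover counting error only. Rif1 stood at 42.0, 46.4 and 49.2 CPM in sKO libraries 1 to 3, against 96.5, 83.7 and 129 CPM in WT libraries 1 to 3 (edgeR adjusted p = 0.0145, log2 fold change -1.17, SE 0.15). The defining markers of the testis were present, with the 10 Sertoli cell markers summing to 6534 to 7974 CPM in sKO and 5371 to 6308 CPM in WT. The first principal component held 55.0% of the variance and set WT library 1 (score 48.6) and sKO library 1 (-41.6) farthest apart, while sKO library 3 (-3.15) lay nearest to the WT libraries. The 8 epididymis markers summed to 229 CPM in sKO library 1 and to between 2.03 and 27.1 CPM in the other 5 libraries.

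The proximal promoters of Btg2 and Btg1 are shown because these are the 2 members whose groups did not overlap. Each is the 250 bases before the transcription start in RefSeq (GRCm38.p6; the counts were made on mm39), written 5′ to 3′ on the gene's strand. Btg2 lies on the minus strand (chr1:134079156-134079405) and Btg1 on the plus strand (chr10:96616751-96617000). Capitals mark the cAMP response element palindrome TGACGTCA and its core TGACG on either strand.
Btg2: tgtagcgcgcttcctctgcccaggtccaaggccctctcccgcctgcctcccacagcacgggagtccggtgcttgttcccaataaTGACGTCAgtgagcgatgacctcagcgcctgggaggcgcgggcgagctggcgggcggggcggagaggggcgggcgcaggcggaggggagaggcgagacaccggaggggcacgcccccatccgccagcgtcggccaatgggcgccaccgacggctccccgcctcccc
Btg1: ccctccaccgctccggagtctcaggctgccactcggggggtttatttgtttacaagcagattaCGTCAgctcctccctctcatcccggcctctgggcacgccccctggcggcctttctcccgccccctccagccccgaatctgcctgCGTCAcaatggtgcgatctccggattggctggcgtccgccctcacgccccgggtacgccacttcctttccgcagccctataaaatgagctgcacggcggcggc

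Btg2 was the only member with the full palindrome, which begins 166 bases before its start and is found in 1.55% of 32851 such promoter windows. The palindrome itself holds the core on both strands. Btg1 carried the core at 2 places, 187 and 103 bases before its start, and Tob1 carried it at 1, 96 bases before its start. The core occurs in 17.8% of all windows, and no match was found in the windows of Btg3 (both of its starts), Btg4 or Tob2. The p53 decamer (7.13% of windows), the CArG box of serum response factor (1.47%) and the STRA8 motif CNCCTCAG (6.42%), searched on both strands, had no exact match in any of the 7 windows of the family. No mismatch was allowed, so near matches to these motifs were not sought. A TATA box (TATAAA, 12.4% of windows) was found 26 bases before the start of Btg1 and 47 bases before that of Tob1, but not in the Btg2 window. The CCAAT box (33.8% of windows) and the GC box (GGGCGG, 32.7%) both occurred in the windows of Btg2, Btg1 and Tob1 and in 1 window of Btg3. The Btg4 window and the other Btg3 window had the CCAAT box only, and the Tob2 window the GC box only. GC content was 73.2% for Btg2 and 65.2% for Btg1, and 38% for Btg4. These matches describe letters in a window and not binding.

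Btg2 had counts of 816, 947 and 931 in sKO libraries 1 to 3, against 624, 599 and 574 in WT libraries 1 to 3. On the CPM scale it stood at 49.0, 57.3 and 51.2 in sKO, against 35.0, 35.3 and 35.7 in WT. Every sKO library lay above every WT library, and the WT libraries were almost level. Btg2 averaged 52.5 ± 4.32 CPM in sKO and 35.3 ± 0.352 CPM in WT (SD, n = 3 each), a log2 fold change of 0.57 (SE 0.10), or 1.49-fold. Its estimate was higher than that of 96.8% of the tested genes. Of the 3409 genes within 1.5-fold of its level, 15.9% had a smaller pooled within-group SD on the log2 scale. The SD of Btg2 was 0.998% of the mean in WT and 8.23% in sKO. With 3 libraries per group, the close WT values describe these libraries only and are not read as a trait of the gene.

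Btg2 was the 1 member of 6 called higher in sKO at an edgeR adjusted p under 0.05 over all genes, and 0 members were called lower. Among all tested genes, 0.0318% were called higher and 1.27% lower, and since the same contrast put the family forward, nothing is read from its count. DESeq2 also called Btg2 alone and limma-voom called 0 members. At an unadjusted p under 0.05, edgeR placed 2 members higher and 1 lower, where 5.06% and 8.54% of all tested genes were. The Btg2 call was lost when sKO library 1, sKO library 2, WT library 1 or WT library 2 was left out, with log2 fold changes of 0.60, 0.51, 0.57 and 0.57. Without sKO library 1, sKO library 2 or WT library 2, edgeR called 0 genes of any kind. The genes at an unadjusted p under 0.05 were then 431 higher and 1410 lower, 503 higher and 1221 lower, and 1102 higher and 1662 lower, against 954 higher and 1611 lower with all libraries. A fit with replicate number as a block gave a Btg2 estimate of 0.57 and no call. Omitting both libraries numbered 1, an alternative chosen after seeing the data, gave a Btg2 estimate of 0.60 and no call.

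**Figure D1:**
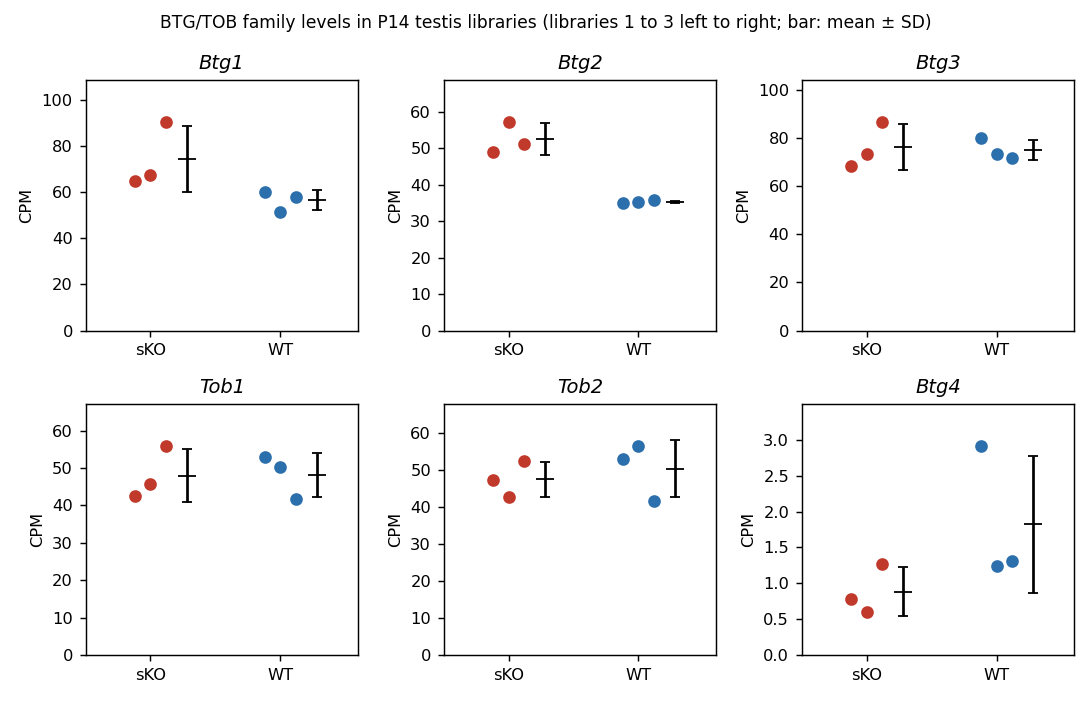
Level of each family member in CPM (vertical axis, from 0) in the sKO libraries (red) and the WT libraries (blue), with libraries 1 to 3 from left to right in each group and the mean ± SD beside them. The sKO points of Btg2 (49.0 to 57.3 CPM) and of Btg1 (64.8 to 90.6 CPM) lie above all WT points, while the groups overlap for the other 4 members.

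Btg1, the paralog first found at a chromosome translocation in human B cell leukaemia, had 64.8, 67.2 and 90.6 CPM in sKO, against 59.8, 51.5 and 57.8 CPM in WT. Again every sKO library was above every WT library, but the gap between sKO library 1 and WT library 1 was narrow and sKO library 3 stood well above the rest. The means were 74.2 ± 14.2 CPM in sKO and 56.4 ± 4.36 CPM in WT (SD, n = 3 each), with a log2 fold change of 0.40 (SE 0.14). Btg1 was not called, and its estimate was 0.19 without sKO library 3. Btg1 and Btg2 were thus 2 members of 6 with every sKO library above every WT library, and 0 members had the reverse, beside 9.58% and 10.7% of all tested genes. The table also lists the symbols Btg1b, with no counts in any library, and Btg1c, with 10, 6 and 8 counts in sKO and 7, 8 and 2 in WT. How multi-mapping reads were counted is not stated, so reads of Btg1 and these genes may not be fully separated.

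Btg3, which in human cells binds the cell cycle factor E2F1, had 68.4, 73.4 and 86.9 CPM in sKO, against 79.9, 73.3 and 71.8 CPM in WT. The groups overlapped, with sKO library 3 highest and sKO library 1 lowest of the 6. Its log2 fold change was 0.02 (SE 0.11), and it took both signs when single libraries were left out (-0.12 to 0.08).

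Tob1, which besides its part in deadenylation restrains Smad signalling of bone morphogenetic proteins in mice, had 42.5, 45.6 and 55.9 CPM in sKO, against 52.9, 50.2 and 41.6 CPM in WT. Its log2 fold change was -0.01 (SE 0.13), between -0.17 and 0.06 with single libraries left out. Tob2, its close paralog, had 47.2, 42.8 and 52.3 CPM in sKO, against 52.99, 56.5 and 41.6 CPM in WT, a log2 fold change of -0.09 (SE 0.13). For both TOB genes the groups overlapped widely, and WT library 3 was the lowest of the 6 libraries. Group means differed by less than the within-group SD, at 48.0 ± 7.04 CPM in sKO and 48.2 ± 5.89 CPM in WT for Tob1, and at 47.5 ± 4.77 CPM in sKO and 50.4 ± 7.79 CPM in WT for Tob2 (SD, n = 3 each).

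Btg4 was the least abundant member, with counts of 13, 10 and 23 in sKO libraries 1 to 3, against 52, 21 and 21 in WT libraries 1 to 3. These corresponded to 0.781, 0.605 and 1.26 CPM in sKO, against 2.92, 1.24 and 1.31 CPM in WT. WT library 1 was far above the rest, and sKO library 3 lay between WT libraries 2 and 3. The means were 0.884 ± 0.341 CPM in sKO and 1.82 ± 0.950 CPM in WT (SD, n = 3 each). Btg4 had the estimate farthest from 0 in the family, a log2 fold change of -1.03 with an SE of 0.44, and was not called. The estimate was -0.51 without WT library 1 and -1.42 without sKO library 3.

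The Btg4 gene overlaps Hoatz, a gene of motile cilia and flagella, and the microRNA genes Mir34b and Mir34c on chromosome 9 (RefSeq, GRCm38). In the basic set of GENCODE M21, Hoatz (listed as 4833427G06Rik), both microRNA genes and Layn, a hyaluronan receptor gene, overlap Btg4 on the opposite strand with 0 shared exon bases. Tob2 shares 207 of 4151 exon bases with Gm49476 on the opposite strand, and since strand handling is not stated for the counting, their reads may not be fully separated. Hoatz and Layn were looked up after the Btg4 values were seen. Hoatz had 0.481, 0.484 and 1.48 CPM in sKO, against 5.22, 1.77 and 1.74 CPM in WT, with a log2 fold change of -1.81 (SE 0.57, edgeR adjusted p = 0.177). In Hoatz as in Btg4, WT library 1 was highest and sKO libraries 1 and 2 were lowest. Layn averaged 3.81 ± 0.513 CPM in sKO and 3.23 ± 0.466 CPM in WT (SD, n = 3 each), with overlapping groups and a log2 fold change of 0.23 (SE 0.23, edgeR adjusted p = 0.703). Over the 6 libraries Mir34b had 0 counts and Mir34c had 1, in WT library 3; the poly(A) selection does not measure mature microRNAs.

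**Figure D2:**
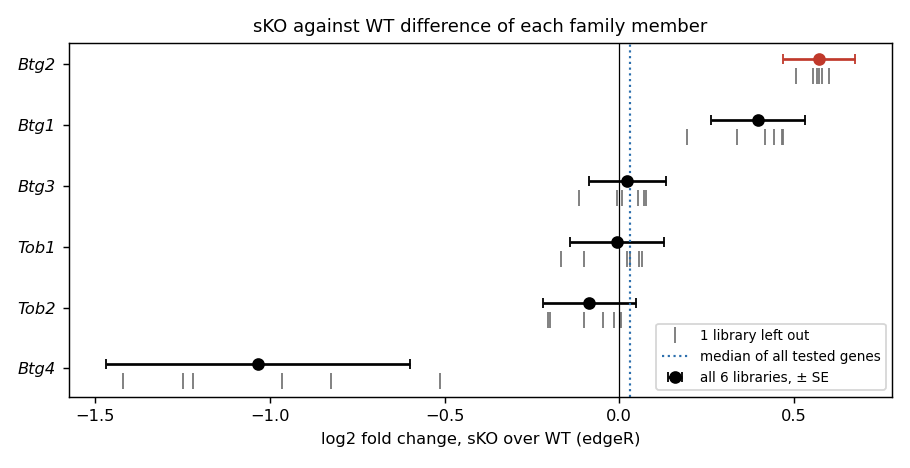
Log2 fold change of sKO over WT (horizontal axis) for each member with all 6 libraries (dots, ± SE) and with each library left out in turn (ticks), the dotted line being the median of all tested genes (0.03). Btg2 (0.51 to 0.60) and Btg1 (0.19 to 0.47) stay above 0 at every tick, Btg4 (-1.42 to -0.51) stays below it, and Btg3, Tob1 and Tob2 have ticks on both sides.

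Per transcript length, Btg3 had the highest level of the family. On the scale of CPM per kilobase of the RefSeq transcript, Btg3 averaged 53.9 ± 6.75 in sKO and 53.05 ± 3.05 in WT (SD, n = 3 each), and it stayed first with the longest annotated coding transcript (3013 in place of 1414 bases), at 25.3 in sKO and 24.9 in WT. Tob1 came next, at 21.0 ± 3.08 CPM per kilobase in sKO and 21.1 ± 2.58 in WT (SD, n = 3 each). Btg2 stood at 17.9, 20.9 and 18.7 CPM per kilobase in sKO, against 12.8, 12.9 and 13.0 in WT. It therefore overlapped the range of Tob1 (18.6 to 24.4) in sKO, whereas in WT it lay below all 3 Tob1 values (18.2 to 23.1). Btg1 averaged 14.8 ± 2.84 CPM per kilobase in sKO and 11.3 ± 0.871 in WT, and Tob2 averaged 11.4 ± 1.15 in sKO and 12.1 ± 1.88 in WT (SD, n = 3 each). Btg1 and Btg2 overlapped in sKO, where Tob2 lay below both; in WT the Tob2 values overlapped those of both genes. Btg4 was last, at 0.595 ± 0.230 CPM per kilobase in sKO and 1.22 ± 0.639 in WT (SD, n = 3 each).

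Summed over the 6 genes, the family had 273, 287 and 338 CPM in sKO libraries 1 to 3, against 284, 268 and 250 CPM in WT libraries 1 to 3. The groups overlapped, with sKO library 3 highest. Within that sum Btg2 made up 17.97%, 20.0% and 15.1% in sKO, against 12.3%, 13.2% and 14.3% in WT. Btg3 made up 25.1%, 25.6% and 25.7% in sKO, against 28.2%, 27.3% and 28.7% in WT. Btg1 made up 23.8%, 23.4% and 26.8% in sKO, against 21.1%, 19.2% and 23.1% in WT. Every sKO share of Btg2 and Btg1 exceeded all WT shares, and every sKO share of Btg3, Tob1 and Btg4 lay under all WT shares, while the shares of Tob2 overlapped. The gap for Tob1 was narrow, with 16.5% in sKO library 3 against 16.7% in WT library 3. Shares within 1 sum are not independent of each other, so higher shares of Btg1 and Btg2 lower those of the rest. On the CPM scale the groups of Btg3, Tob1 and Btg4 overlapped, and no background over other genes was computed for such shares.

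The libraries differed in their cell type markers as well. All 8 tested pachytene spermatocyte markers of 10 had lower estimates in sKO, 4 were called, and the 10 summed to 141, 160 and 236 CPM in sKO, against 908, 600 and 413 CPM in WT. Of 7 early meiotic prophase markers 6 had lower estimates (median log2 fold change -0.67), 1 was called, Spo11, and the 7 summed to 593, 606 and 1031 CPM in sKO, against 1482, 805 and 934 CPM in WT. Both sums were highest in WT library 1, where Btg4 was also highest, and lowest in sKO libraries 1 and 2. All 10 Sertoli cell markers had higher estimates (median log2 fold change 0.26, 0 called by edgeR, 6 higher at an unadjusted p under 0.05), as did all 7 peritubular myoid markers (median 0.29, 0 called, 0 at an unadjusted p under 0.05). The myoid markers summed to 1401, 1086 and 894 CPM in sKO, against 796, 975 and 1015 CPM in WT. Their sum was highest in sKO library 1, as was that of the epididymis markers (229 CPM), and a link between the 2 was not tested. Of 9 macrophage markers 8 had higher estimates (median 0.37, 0 called, 1 higher at an unadjusted p under 0.05), and they summed to 202, 200 and 151 CPM in sKO, against 111, 171 and 163 CPM in WT. Higher estimates were also found for 7 of 8 Leydig cell markers (median 0.27, 0 called, 2 higher at an unadjusted p under 0.05). The same held for 6 of 7 endothelial markers (median 0.25, 0 called) and 7 of 9 undifferentiated spermatogonia markers (median 0.14, 0 called). None of these markers was at 0 in all libraries. The part of these shifts in the Btg1, Btg2 and Btg4 values was not tested, and in whole testis fewer cells of a type and less RNA per cell cannot be told apart. In sKO library 3 the sums of these cell types differed in their place beside WT. Its myoid, macrophage and endothelial sums (894, 151 and 122 CPM) lay within the WT ranges (796 to 1015, 111 to 171 and 103 to 154 CPM). Its Sertoli, Leydig and undifferentiated spermatogonia sums (6534, 605 and 335 CPM) lay above the WT ranges (5371 to 6308, 370 to 514 and 288 to 310 CPM). Nothing about Btg2 is read from this 1 library.

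**Figure D3:**
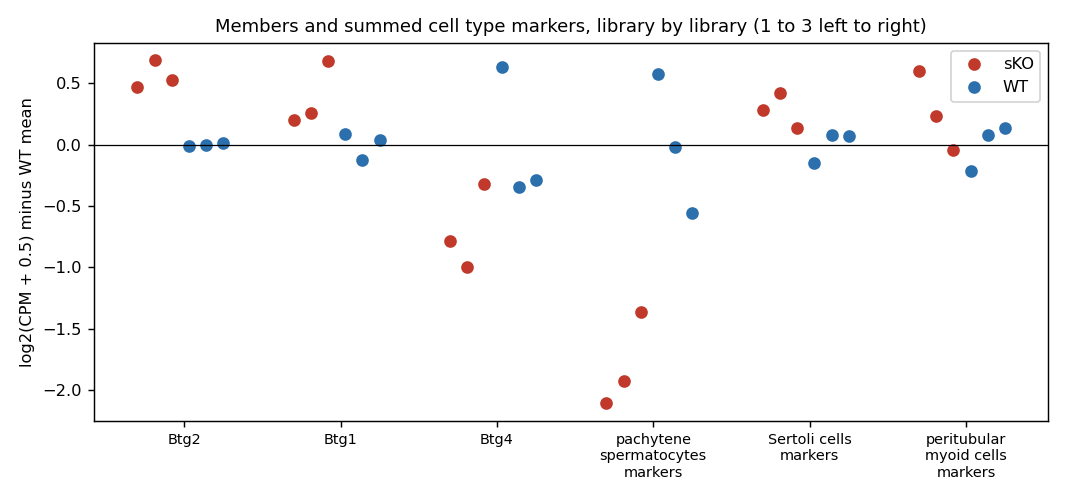
Log2(CPM + 0.5) minus the WT mean (vertical axis) for Btg2, Btg1 and Btg4 and for summed markers of pachytene spermatocytes, Sertoli cells and peritubular myoid cells, in sKO (red) and WT (blue) libraries 1 to 3. Btg2 sits between 0.47 and 0.69 in sKO and between -0.01 and 0.01 in WT, and Btg4 and the pachytene markers are both highest in WT library 1 (0.63 and 0.58).

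The deadenylation machinery that the family binds was examined next. Of the 11 CCR4-NOT genes, 0 were called in either direction by edgeR and 0 by DESeq2 or limma-voom, 1 was lower at an unadjusted p under 0.05, and the median log2 fold change was -0.05, beside 0.03 over all tested genes. That gene was Cnot1, the scaffold subunit, with 489, 447 and 421 CPM in sKO, against 576, 516 and 535 CPM in WT (log2 fold change -0.26, SE 0.09, edgeR adjusted p = 0.239). Cnot10, a subunit of the complex's module at the scaffold's amino-terminal end, had a log2 fold change of -0.12 (SE 0.09, edgeR adjusted p = 0.597). The catalytic subunits Cnot7 and Cnot8, to which BTG and TOB proteins bind, averaged 181 ± 28.0 and 75.1 ± 3.56 CPM in sKO and 170 ± 28.7 and 71.7 ± 1.62 CPM in WT (SD, n = 3 each). Their log2 fold changes were 0.09 (SE 0.14) and 0.07 (SE 0.09), with overlapping groups.

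Of 11 genes in the list with PAN2-PAN3 and PARN, edgeR called 0, with 0 higher and 3 lower at an unadjusted p under 0.05 and a median of 0.02 on the log2 scale. DESeq2 called Pabpc6 and Pabpc1 lower, and limma-voom called neither. Pabpc6 had 2.10, 2.72 and 5.17 CPM in sKO, against 13.0, 7.54 and 7.09 CPM in WT (log2 fold change -1.46, SE 0.35, edgeR adjusted p = 0.0775). Pabpc1, the main cytoplasmic poly(A)-binding protein and the partner of the TOB tail, had 570, 590 and 830 CPM in sKO, against 1131, 914 and 774 CPM in WT (log2 fold change -0.50, SE 0.17, edgeR adjusted p = 0.215). Reads of these similar genes may not be fully separated. Both were highest in WT library 1, as were the pachytene markers.

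Decapping genes, adaptors and partners had 0 calls by edgeR or limma-voom, and DESeq2 called Pabpc1, also a partner, alone. For 10 decapping and decay genes the median log2 fold change was -0.06, with 1 lower at an unadjusted p under 0.05, Edc4, an enhancer of decapping (-0.23, SE 0.09, edgeR adjusted p = 0.276), followed by Lsm14b (-0.22, SE 0.10, edgeR adjusted p = 0.404). The 20 RNA-binding adaptors of deadenylases had a median of -0.02, with 2 higher and 3 lower at an unadjusted p under 0.05. Among them Samd4, the Smaug homolog, had 19.3, 17.9 and 14.5 CPM in sKO, against 8.97, 12.3 and 13.0 CPM in WT (log2 fold change 0.59, SE 0.18, edgeR adjusted p = 0.162), and Tnrc6c, a partner of Argonaute proteins, had a log2 fold change of -0.23 (SE 0.10, edgeR adjusted p = 0.338). The 10 protein partners, of which Cnot7, Cnot8 and Pabpc1 stand in the lists above, had a median of 0.04, with 1 higher and 2 lower at an unadjusted p under 0.05. The homeobox gene Hoxb9, whose protein binds BTG2, had a log2 fold change of 0.47 (SE 0.17, edgeR adjusted p = 0.249).

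Genes that share the inducers of Btg2 were examined as well. Among 18 p53 targets, 12 had higher estimates and 6 lower, edgeR, DESeq2 and limma-voom called 0, 1 was higher at an unadjusted p under 0.05, and the median log2 fold change was 0.09. Ccng1, a cyclin G induced by p53, had 62.7, 59.8 and 64.1 CPM in sKO, against 51.6, 42.4 and 52.5 CPM in WT (log2 fold change 0.35, SE 0.11, edgeR adjusted p = 0.169). Gadd45a, a growth arrest gene, had a log2 fold change of 0.28 (SE 0.13, edgeR adjusted p = 0.379), with every sKO library above every WT library. Cdkn1a, the p21 inhibitor of cyclin-dependent kinases, had one of 0.04 with overlapping groups, and Mdm2 one of -0.24. The largest estimates of the list were those of Fas (0.76, SE 0.37) and Eda2r (0.57, SE 0.30), both without overlap of the groups. Cdkn1a, Mdm2, Fas and Eda2r were chosen after their values were seen. Of the 18 targets, 4 had every sKO library above every WT library and 0 had the reverse, beside 9.58% and 10.7% of all tested genes.

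Among 20 immediate early genes 19 had higher estimates, where 55.3% of all tested genes did, and the median log2 fold change was 0.26. None passed the threshold with edgeR, DESeq2 or limma-voom, and 4 were higher and 0 lower at an unadjusted p under 0.05. The Sertoli, myoid and macrophage markers also had mostly higher estimates, with medians of 0.26, 0.29 and 0.37, and their part in the values of this list was not tested. Jun, a subunit of the AP-1 factor, had 59.1, 78.3 and 62.7 CPM in sKO, against 51.0, 54.1 and 49.3 CPM in WT (log2 fold change 0.37, SE 0.12, edgeR adjusted p = 0.180). Atf3, a stress-induced factor, had 8.29, 12.2 and 9.68 CPM in sKO, against 4.65, 6.54 and 7.40 CPM in WT (log2 fold change 0.70, SE 0.22, edgeR adjusted p = 0.174). In both, as in Btg2 and in the summed Sertoli markers, sKO library 2 was the highest of the 6. Other genes of the list peaked elsewhere, such as Junb and Klf4 in sKO library 3 and Egr2 in sKO library 1. The ends of the list were Nr4a1, an orphan nuclear receptor, at 1.10 (SE 0.38) with 58.9 CPM in sKO library 3 against 22.3 and 24.8 CPM in sKO libraries 1 and 2, and Fosb at -0.64 (SE 0.37), both named after their values were seen.

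**Figure D4:**
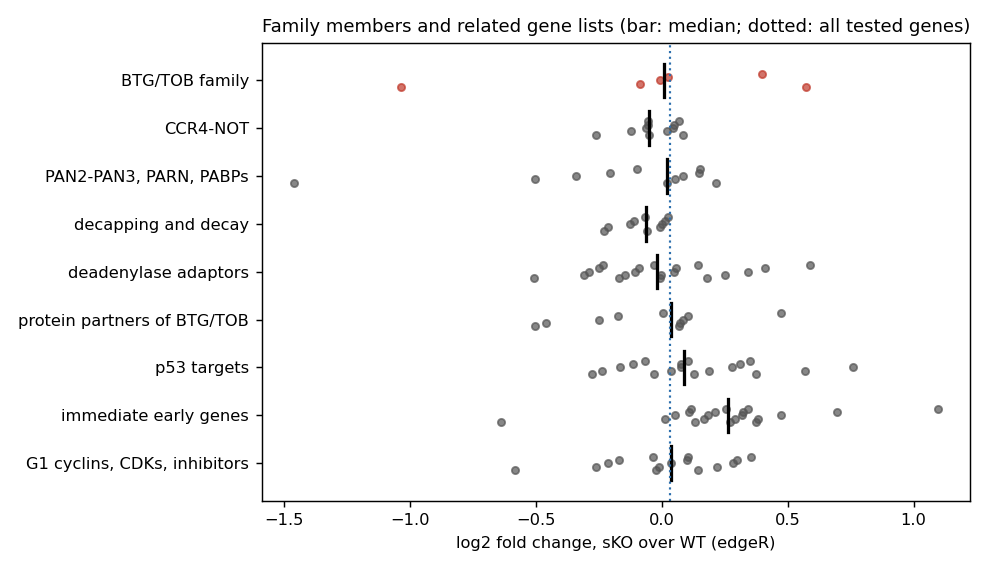
Log2 fold change of sKO over WT (horizontal axis) for the 6 members (red) and for the genes of 8 related lists (grey), with the median of each (bar) and of all tested genes (dotted, 0.03). The members spread from -1.03 to 0.57 around a median of 0.01, and the immediate early list has the highest median, 0.26.

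Cell cycle genes of the G1 phase had mixed estimates. Of 15 G1 cyclins, kinases and inhibitors, edgeR and limma-voom called 0 while DESeq2 called 1 lower, 3 were higher and 1 lower at an unadjusted p under 0.05 with edgeR, and the median log2 fold change was 0.04. Cdkn2c, the p18 inhibitor of CDK4 and CDK6, was the gene DESeq2 called, with 22.0, 18.4 and 19.4 CPM in sKO, against 36.0, 27.8 and 25.8 CPM in WT (log2 fold change -0.58, SE 0.15, edgeR adjusted p = 0.0901). Cdk6 itself had a log2 fold change of 0.28 (SE 0.11, edgeR adjusted p = 0.296). Ccnd1, the cyclin D1 gene known to be repressed by BTG2, had one of -0.02 with overlapping groups and was picked for that role.

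For each member the 3 most similar profiles were sought among named genes of at least 5 CPM on average, as the smallest root mean square difference between log2(CPM + 0.5) values centred on each gene's mean over the 6 libraries. For Btg2 these were Mcur1 (difference 0.073), Kcnk5 (0.074) and Tbc1d9 (0.082), with log2 fold changes of 0.52, 0.57 and 0.57. For Btg1 they were Herc6 (0.033), Dusp5 (0.060) and Nanos1 (0.064). For Btg4 they were Enkur (0.057), Cfap36 (0.089) and Cdkl2 (0.090), which also had their highest level in WT library 1. For Btg3 they were Rffl, Sppl3 and Slc25a16 (0.018 to 0.022), for Tob1 Yy1, Abhd17c and Kifbp (0.037 to 0.047), and for Tob2 Bud13, Tmem201 and Bcl2l12 (0.038 to 0.060). A shared peak library or a near fold change follows from the way these genes were picked and is not a separate result. With 6 libraries and 12043 genes searched, such likeness describes these libraries only.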

How the data were processed

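Poly(A) RNA of 6 testis samples was sequenced. The authors deposited raw read counts per gene symbol, 1 column per sample, made with Trim Galore, HISAT2 and featureCounts on mm39, per the submitters' processing notes; versions, annotation, strand and multi-mapping settings are not given there. The columns named con and scKO were read as WT and sKO and matched by number. Libraries held 15941672 to 18296594 counts, and no pair within a group agreed within sampling noise (chi-square over its degrees of freedom, 4.45 to 20.2).

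The test was that of edgeR 4.0.16 in R 4.3.3, a robust quasi-likelihood F test after filterByExpr and TMM with no covariates, with Benjamini-Hochberg adjustment over 18860 genes; an adjusted p under 0.05 is referred to as called. The SE of a log2 fold change came from its F statistic. CPM used TMM-scaled library sizes. Alternatives were DESeq2 1.42.0, limma-voom (limma 3.58.1), RLE size factors, no filter, at least 1 CPM in 3 libraries, a replicate block and leaving out each library. The fits were tested on simulated data.

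Members and lists were chosen with earlier results of these data known. Named were the members, Rif1, called list genes, the 2 uncalled genes with the smallest p of each list, and the 3 profiles most alike to each member; other genes are marked. Promoters came from RefSeq (GRCm38.p6, all 6 members matched) and transcript lengths from GENCODE M21 through RefSeq identifiers. Protein sequences were not used here.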

Additional observations from a re-analysis of the deposited data

How the results depend on the processing

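The log2 fold change of Btg2 stayed between 0.51 and 0.60, that of Btg1 between 0.19 and 0.52 and that of Btg4 between -1.42 and -0.44 over the 13 alternatives, with the same sign in each. Btg2 was called in 6 of the 13 and Btg1 in 1, without the low-count filter. Signs changed for Btg3 (-0.12 to 0.077 with single libraries left out), Tob1 (-0.17 to 0.065, and 0.13 without both libraries numbered 1) and Tob2 (-0.20 to 0.0049). With edgeR and all libraries 6 genes were called higher and 240 lower; DESeq2 called 56 and 721, limma-voom 0 and 15, and the fit without the filter 154 and 992. Leaving out single libraries gave 0 to 31 higher and 0 to 624 lower, and leaving out both libraries numbered 1 gave 155 lower. Members called higher numbered 0 with limma-voom, with the replicate block and without both libraries numbered 1, 2 without the filter, and 0 to 1 with single libraries left out. Of the 111 genes of the related lists, edgeR called 0 with all libraries, DESeq2 called 3 lower, the fit without the filter called 2 higher and 4 lower, and single libraries left out gave 0 to 2 lower, Pabpc6 and Pabpc1 without sKO library 3. The 6 without the filter were Samd4, Atf3, Pabpc6, Pabpc1, Cpeb2 and Cdkn2c. The cause of these shifts was not tested.

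The labels do not state whether same-numbered samples are paired. Same-numbered deviations from the group means correlated at -0.365, 0.146 and -0.308 over the tested genes. With 3 libraries per group these values cannot decide whether the samples were paired. With the replicate block 0 genes were called higher and 21 lower, and the Btg2 estimate was 0.57. Btg4 had 10 to 52 counts per library, the lowest of the family.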
